A study of Mus musculus with 6 samples.

Results

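The 10 genes of a set of lymphocyte lineage transcription factors were followed across the lymphocytes of mouse liver: Tbx21, Eomes, Gata3, Foxp3, Zbtb16, Bcl6, Prdm1, Tcf7, Lef1 and Ikzf2. They were chosen by name, and all 10 were among the 31253 genes of the count tables, each under 1 identifier. Single cells of dissociated liver were counted by unique molecular identifiers (UMIs, tags that mark single captured transcripts) in 6 libraries, 1 per biological replicate. The knockout group (3 libraries) was labelled Stingfl/fl Cdh5-Cre+, and the control group (3 libraries) was labelled Stingfl/fl Cdh5-Cre-, so that both groups carried the floxed Sting allele and differed in Cre. Every mouse was kept on normal chow to 8 weeks of age and received WD-CCl4 (western diet with carbon tetrachloride, a model of metabolic dysfunction-associated steatohepatitis, MASH) for 12 weeks. No group without WD-CCl4 was analysed here. Cdh5 is the endothelial cadherin gene, and a Cre under its promoter can also mark blood cells that descend from endothelium; the labels do not say whether this Cre is inducible. The labels call the material liver sinusoidal endothelial cells, yet 28299 of the 41744 cells used carried the markers of T, NK, ILC1, B or plasma cells.

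These factors bind DNA and set which effector or memory programme a lymphocyte follows. Tbx21 (T-bet) and Eomes are T-box factors of type 1 and cytotoxic cells, and Eomes separates NK cells from ILC1 in mouse liver. Gata3 directs type 2 helper cells and ILC2, Foxp3 defines regulatory T cells, in which Ikzf2 (Helios) is often found, and Zbtb16 (PLZF) marks innate-like T cells. Bcl6 and Prdm1 (Blimp-1) repress each other, Bcl6 in germinal centre B cells and follicular helper T cells and Prdm1 in plasma cells and effector T cells. Tcf7 (TCF1) and Lef1 are partners of beta-catenin and are high in naive and memory T cells.

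In GENCODE release M21 (GRCm38) the genes lie apart on the genome. Tbx21 is at chr11:97098071-97115331 (minus strand), Eomes at chr9:118478212-118486132 (plus), Gata3 at chr2:9857078-9890034 (minus), Foxp3 at chrX:7573644-7595245 (plus) and Zbtb16 at chr9:48654297-48836222 (minus). Bcl6 is at chr16:23965052-23988852 (minus), Prdm1 at chr10:44437177-44528501 (minus), Tcf7 at chr11:52252371-52283014 (minus), Lef1 at chr3:131110471-131224356 (plus) and Ikzf2 at chr1:69531214-69687245 (minus). RefSeq promoter sequences (GRCm38.p6) matched 8 of the 10 genes, with 14 start sites; Zbtb16 and Ikzf2 had no entry. The 250 bases before each start were searched on both strands for short letter strings that members of these factor families bind. The string AGATAA, bound by Gata3 and its relatives, was found before 1 of the 14 starts, in Foxp3, and before 9.99% of all 32851 starts in the table. TGTTTAC (forkhead factors such as Foxp3) was found before 1 start, in Prdm1, and before 3.17% of all starts. CTTTGAT (Tcf7 and Lef1) and AGGTGTGA (T-box factors) were found before none of the 14, and before 3.21% and 1.12% of all starts. Both sequences are shown because they were the ones with a match among the starts of the 10 genes. Capitals mark the matched letters. The Gata3 string lies 47 bases before the Foxp3 start shown, and another Foxp3 start had no match. The forkhead string, on the reverse strand, lies 231 bases before the Prdm1 start shown. Both stretches lie inside the gene spans given above, so neither start is the outermost of its gene. These matches are descriptions of the letters and not evidence of binding.
Foxp3, chrX:7580233-7580482, plus strand: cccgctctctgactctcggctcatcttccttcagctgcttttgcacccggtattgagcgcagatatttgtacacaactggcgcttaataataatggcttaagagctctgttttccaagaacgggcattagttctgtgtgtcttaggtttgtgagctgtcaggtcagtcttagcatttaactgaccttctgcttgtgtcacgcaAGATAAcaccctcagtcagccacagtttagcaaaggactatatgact
Prdm1, chr10:44458749-44458998, minus strand: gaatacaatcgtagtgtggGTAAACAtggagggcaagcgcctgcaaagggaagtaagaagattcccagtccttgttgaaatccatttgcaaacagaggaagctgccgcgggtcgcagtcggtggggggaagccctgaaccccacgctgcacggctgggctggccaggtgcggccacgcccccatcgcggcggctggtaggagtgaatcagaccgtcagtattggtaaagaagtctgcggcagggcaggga

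The libraries held 55017937 to 73867890 UMIs, with a median of 4695.5 to 7345 per barcode. Clusters were named from marker genes that did not include the 10 factors, and the factors were left out of the clustering. This gave 16623 T-like, 8303 B-like, 2092 ILC1-like, 796 plasma-like and 485 NK-like cells, and NK-like cells numbered 39 to 118 per library. The floxed gene itself, Sting1, was at 27.3, 26.5 and 27.3 CPM (counts scaled to the UMIs of the class in each library) in endothelial-like cells of the controls and at 21.9, 14.7 and 22.0 in the knockouts. The groups did not overlap (exact permutation test, two-sided, p = 0.1, the smallest that 3 against 3 libraries allow). A 3′ tag need not lie in the floxed part, so this is only a partial check of the labels. In T-like cells Sting1 was 12.9 ± 1.42 CPM in controls and 12.7 ± 1.08 in knockouts (SD, n = 3 each; p = 0.8, same exact test), whereas in B-like cells it was 8.02 ± 1.36 and 4.69 ± 0.748, and in ILC1-like cells 17.6 ± 1.7 and 11.03 ± 0.697, both without overlap (p = 0.1, same exact test). Some libraries stood apart. Pancreatic enzyme genes (10 listed) had a UMI in 35.1% of the cells of knockout 1 (2.4% to 6.4% elsewhere), and their summed level in T-like cells was 1529 CPM in control 2, 81.9 in knockout 1 and 5.05 or less in the other libraries. Control 1 gave 773 of the 1079 Gzmk CD8-like cells described below.

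Among the T-box factors, Tbx21 was highest in ILC1-like cells, at 582, 663 and 608 CPM in the controls and 576, 720 and 579 in the knockouts. It was 430 ± 70.0 CPM in NK-like cells (SD, n = 6 libraries here and below) and 279 ± 35.1 in T-like cells. The ILC1-like values lay above all NK-like values, while NK-like (313 to 502) and T-like (233 to 324) values overlapped. Eomes had another order. NK-like cells held 311, 313 and 285 CPM in controls and 313, 346 and 314 in knockouts, T-like cells 73.5 ± 18.8 and ILC1-like cells 14.1 ± 4.18, with no overlap between these 3 classes. ILC1-like cells thus held the most Tbx21 of these classes and the least Eomes. B-like cells held few transcripts of either factor, 15.8 ± 2.19 CPM of Tbx21 and 0.284 ± 0.371 of Eomes.

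Gata3 was found in the T-like, ILC1-like and NK-like classes. Its level was 220 ± 37.3 CPM in T-like, 198 ± 16.8 in ILC1-like and 134 ± 49.3 in NK-like cells, where neighbouring ranges overlapped, and 1.31 ± 0.659 in B-like cells. ILC1-like and NK-like cells also held T-cell receptor transcripts (6 genes summed), at 577 to 813 and 306 to 502 CPM, against 1847 to 2920 in T-like cells. The part of these transcripts' cells in the ILC1-like and NK-like levels of any factor was not tested. Foxp3 was mostly found in T-like cells, with 1751 of its 1794 UMIs in the 5 classes, at 16.9, 13.2 and 17.7 CPM in controls and 18.6, 18.7 and 27.0 in knockouts. No Foxp3 UMI was found in 485 NK-like cells, which allows a share of cells with a UMI of up to 0.619% and a level of up to 1.01 CPM (3 counts over all 6 libraries, counting error only). ILC1-like cells held 8 Foxp3 UMIs in all and B-like cells 6. Ikzf2 was at 444 ± 48.9 CPM in ILC1-like and 436 ± 69.1 in T-like cells, which overlapped, at 120 ± 37.3 in NK-like cells and at 1.86 ± 0.944 in B-like cells. Zbtb16 followed T-like (122 ± 23.4), ILC1-like (91.0 ± 14.3) and NK-like cells (43.5 ± 9.15), with overlap between the first and the second only. Zbtb16 was also the least lymphoid of the 10. Only 30.2% of its UMIs over all cells came from these 5 classes, against 94.8% of those of Tbx21, and mesothelial-like cells held 260 ± 94.5 CPM of it.

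Bcl6 and Prdm1 showed opposite orders in the B lineage. Bcl6 was at 171, 218 and 225 CPM in control and 188, 248 and 209 in knockout B-like cells, and at 18.1 ± 14.0 in plasma-like cells. Prdm1 was at 162, 195 and 145 CPM in control and 135, 178 and 168 in knockout plasma-like cells, and at 11.4 ± 2.83 in B-like cells. Neither gene's B-like and plasma-like ranges met. Such a gap is common between these classes: 5 of 10 factors, Bcl6 and Prdm1 included, and 42.8% of all genes with at least 20 UMIs had one. Outside the B lineage, Bcl6 was at 258 ± 43.8 CPM in ILC1-like and 257 ± 73.9 in NK-like cells, against 210 ± 27.4 in B-like cells, and neighbours in that order overlapped. T-like cells held 114 ± 13.6. Prdm1 was at 55.7 ± 12.2 CPM in NK-like, 53.4 ± 8.44 in T-like and 24.9 ± 6.28 in ILC1-like cells. Tcf7 was at 266 ± 27.9 CPM in NK-like, 258 ± 37.9 in T-like and 181 ± 28.3 in ILC1-like cells, and neighbours in that order overlapped. Lef1 was highest in T-like cells (342 ± 52.2), then in NK-like (180 ± 45.7) and ILC1-like cells (89.0 ± 13.9), with no overlap between the 3. B-like cells held 5.42 ± 1.44 CPM of Tcf7 and 19.7 ± 5.82 of Lef1. These orders describe classes named by other genes and carry no test. All 10 factors were without overlap between T-like and B-like cells, where 41.8% of all genes with at least 20 UMIs were, and 6 of 10 between NK-like and ILC1-like cells, where 7.78% of all such genes were.

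**Figure D1:**
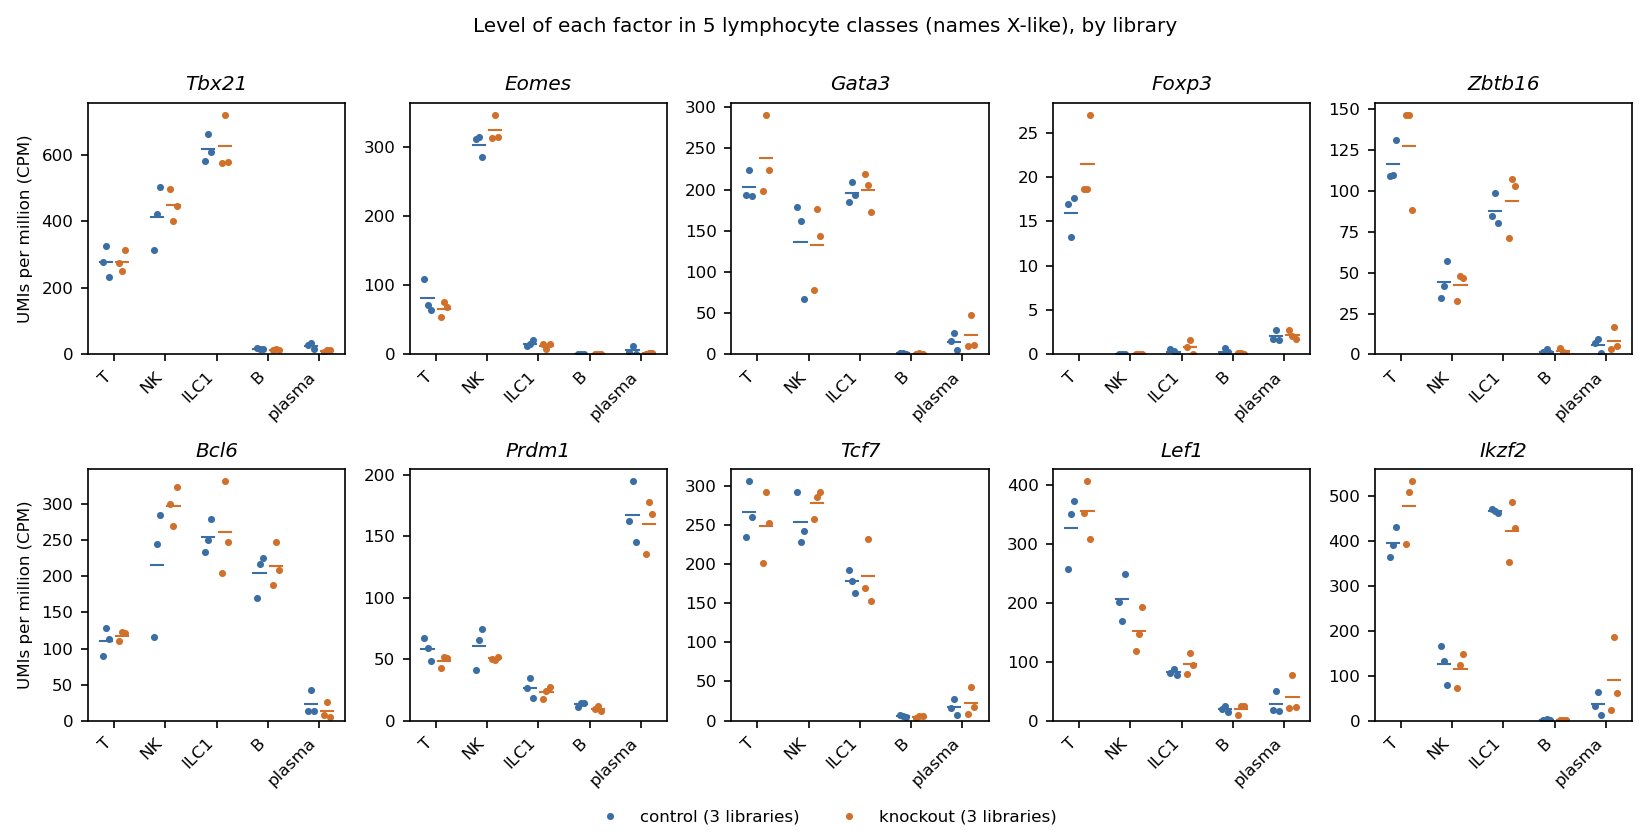
Level of each factor in CPM (vertical axis, linear, from 0, with its own scale in each panel) in the 5 lymphocyte classes. Points are libraries (blue, 3 control; orange, 3 knockout) and short lines are group means; the 6 ILC1-like Tbx21 values lie above all NK-like values, and the 6 NK-like Eomes values lie above those of every other class.

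As a share of cells with at least 1 UMI after each cell was thinned to 2000 UMIs, Tbx21 was found in 62.6% of ILC1-like, 48.1% of NK-like and 33.6% of T-like cells (means of 6 libraries), and in 2.5% of B-like cells. The B-like share cannot be read as a background rate, since Tbx21 levels differed between the B-like subsets described below. Foxp3 was found in 3.8% of T-like and 26.1% of Treg-like cells, so most Treg-like cells gave no Foxp3 UMI at this depth. Its share in B-like cells was 0.0%. Median depth before thinning was 5185 UMIs in T-like and 4789 in B-like cells, and 1379 T-like cells under 2000 UMIs were left out.

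The T-like class was a mixture, and the factors separated its clusters. Foxp3 was at 150 ± 14.8 CPM in Treg-like cells (named from Il2ra, Ctla4, Tnfrsf4 and other genes, 2097 cells), which held 81.0% of the Foxp3 UMIs of all T-like cells in 12.6% of the cells. The same cells had 1834 ± 217 CPM of Ikzf2 and 541 ± 80.1 of Gata3, against 272 and 260 in CD4-like cells, and 59.9 of Tcf7 against 378. Zbtb16 came mainly from 2 clusters, IL-17-type gamma-delta-like cells (725 ± 54.7 CPM) and an unnamed cluster whose leading genes were Il4, Zbtb16 itself and Kcnq5 (cluster 7, 612 ± 103). These clusters held 36.5% and 43.9% of the Zbtb16 UMIs of T-like cells, and CD8-like cells had 3.48 CPM. They differed in Tbx21, which was 359 ± 24.0 in cluster 7 and 41.2 in the gamma-delta-like cells. Eomes was at 433 ± 107 CPM in Gzmk CD8-like and 199 ± 39.5 in other CD8-like cells, which gave 25.05% and 54.98% of the Eomes UMIs of T-like cells. The Gzmk CD8-like part was 48.0% in control 1 and 9.82% to 20.04% in the other libraries. Prdm1 had its highest T-like mean in Gzmk CD8-like cells (116 ± 40.7), whose Tcf7 (88.5) and Lef1 (60.4) lay below the CD8-like means of 303 and 277. It was not particular to them. Gzmk CD8-like cells held 12.04% of the Prdm1 UMIs of T-like cells in 6.49% of the cells, and Il17a CD4-like cells 5.52% in 2.78%.

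Lef1 reached 2240 ± 363 CPM in cluster 9, a shallow cluster with a median of 3201 UMIs per cell, and Tcf7 was at 493 ± 53.6 CPM there. Among the T-cell marker lists, this cluster scored highest on that of naive or central T cells. The leading genes of cluster 9 were pancreatic enzyme genes such as Ctrb1 and Clps. It was left unnamed because its best score among the T-cell marker lists, 0.422, lay below the 0.6 needed for a name. That cluster held 30.8% of the Lef1 UMIs of T-like cells in 7.2% of the cells. A cluster led by Klra receptors and Fcer1g (cluster 10) combined 407 ± 43.9 CPM of Tbx21 with 784 ± 154 of Ikzf2 and 482 ± 106 of Lef1. Outside the 5 classes, ILC2-like cells (318 cells) had 848 ± 145 CPM of Gata3, the highest mean of any group, and 51.8 of Tbx21. In the B lineage, memory or B1 B-like cells had 39.0 CPM of Tbx21 against 11.4 in naive follicular B-like cells, and 90.1 of Bcl6 against 235. The T-box factor was thus higher and the germinal centre factor lower in the memory or B1 group.

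**Figure D2:**
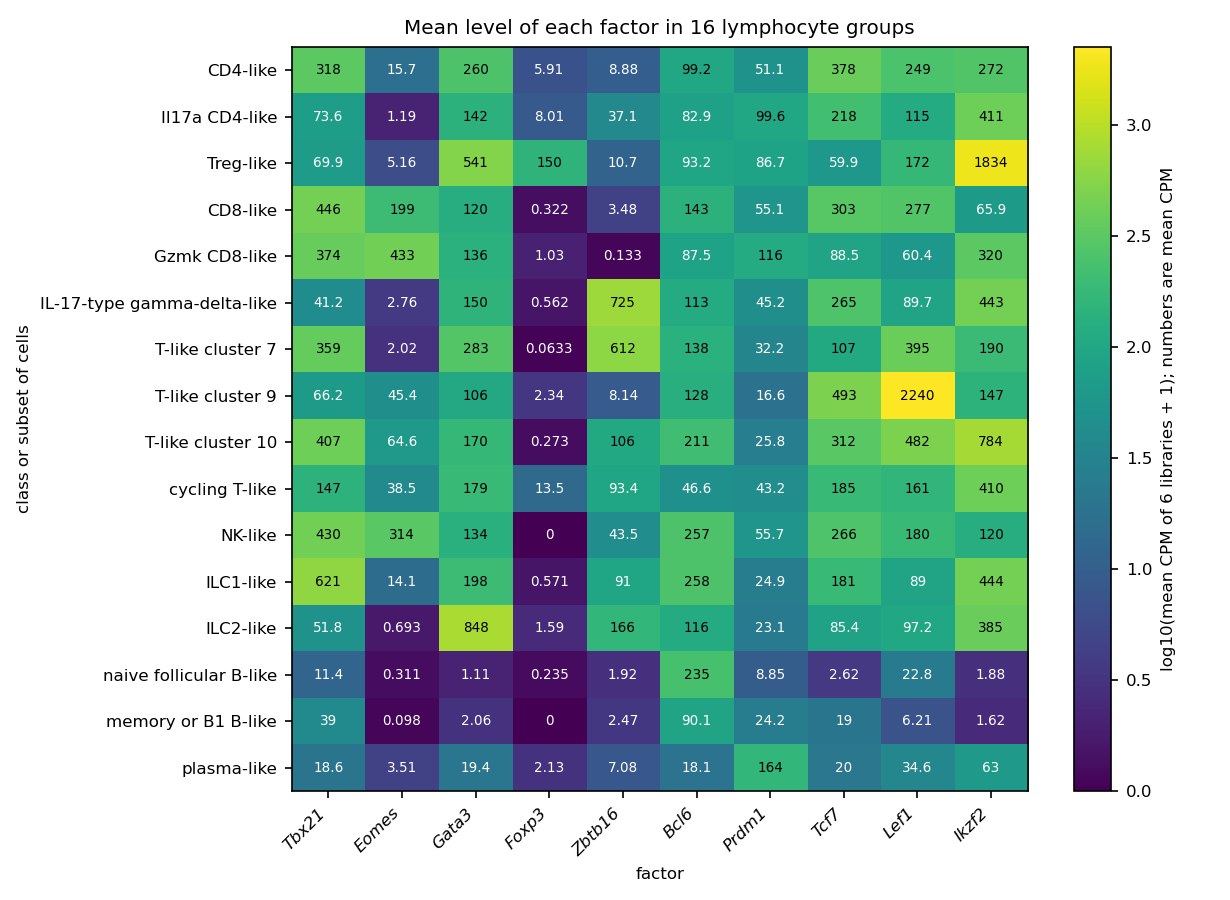
Mean level of each factor (columns) over 6 libraries in 16 groups of lymphocytes (rows); colour is log10 of the mean CPM plus 1, and the printed number is the mean CPM. Foxp3 is highest in Treg-like cells (150), Zbtb16 in IL-17-type gamma-delta-like cells (725) and Lef1 in T-like cluster 9 (2240).

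Plasma-like cells carried T-type factors unevenly. Their Ikzf2 was 32.2, 63.2 and 13.3 CPM in controls and 22.7, 186 and 60.7 in knockouts, and their summed T-marker level (11 genes, all with UMIs in every library) was 341 to 584 CPM in controls and 221 to 964 in knockouts, highest in knockout 2. The same sum was 5427 to 6448 CPM in T-like and 24.7 to 56.1 in B-like cells. When plasma-like cells were divided by whether they held any UMI of 6 T-cell receptor genes (Cd3d, Cd3e, Cd3g, Trac, Trbc1, Trbc2), the 172 cells with one held 614 of the 629 Ikzf2 UMIs. Ikzf2 was 1.59 ± 2.21 CPM in the 624 cells without one, close to the B-like level, and Gata3 was 1.04 ± 1.01 against 19.4 ± 15.5 over all plasma-like cells. Prdm1 stayed at 181 ± 27.8 CPM and Lef1 at 28.3 ± 22.1 in the cells without a receptor UMI. The UMIs of Ikzf2 and Gata3 thus stood mostly in the plasma-like cells that held T-cell receptor transcripts, while 1664 of the 2119 Prdm1 UMIs and 207 of the 377 Lef1 UMIs stood in the others.

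Pairs of factors were then followed within single T-like cells, since a class mean cannot show whether 2 factors share a cell. For each library, cells with UMIs of both factors were counted at 2000 UMIs per cell and set against the number expected from the product of both shares. There were 42 pairs that had at least 5 expected cells in every library. Foxp3 and Ikzf2 were together in 491 cells where 172 were expected, a median log2 ratio of 1.51 and a range of 1.35 to 1.82 over the 6 libraries. Gata3 and Foxp3 (0.91, 311 cells against 170), Tbx21 and Eomes (0.50, 732 against 520), Gata3 and Ikzf2 (0.34) and Tcf7 and Lef1 (0.26) were also above expectation in every library. Eomes and Zbtb16 were the least often together, in 9 cells where 157 were expected (median log2 ratio -4.15), with 3 of 6 libraries at 0 cells. Tbx21 and Foxp3 (31 cells against 194, -2.53), Foxp3 and Tcf7 (36 against 189) and Eomes and Ikzf2 (208 against 448) were below expectation in every library. In all, 7 pairs lay above and 13 below expectation in all 6 libraries. Pairs of other genes were not followed, so no background share stands beside these counts and they cannot be read as particular to the factors. The opposed factors Bcl6 and Prdm1 were in the same T-like cell in 243 cells where 280 were expected ( range -0.56 to 0.36).

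Within the subsets these associations were small. The median log2 ratio stayed between -0.18 and 0.27 over 20 pairs in CD4-like cells, between -0.27 and 0.21 over 20 pairs in CD8-like cells, between -0.20 and 0.17 over 14 pairs in Treg-like cells and between -0.23 and 0.11 over 20 pairs in ILC1-like cells. Foxp3 with Ikzf2 within Treg-like cells had a median of 0.04 (435 cells against 429), and Tbx21 with Eomes within CD8-like cells had 0.08. The pairs Eomes and Zbtb16, Tbx21 and Foxp3, Foxp3 and Tcf7, and Eomes and Ikzf2 had too few expected cells in the subsets to be followed there. Between the groups, the ratio of Foxp3 with Ikzf2 was 1.62, 1.82 and 1.57 in controls and 1.46, 1.35 and 1.37 in knockouts, without overlap (difference -0.28, exact permutation p = 0.1, the smallest possible, adjusted p = 0.884 over 42 pairs). With 3 against 3 libraries no pair could pass the threshold of 0.05.

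**Figure D3:**
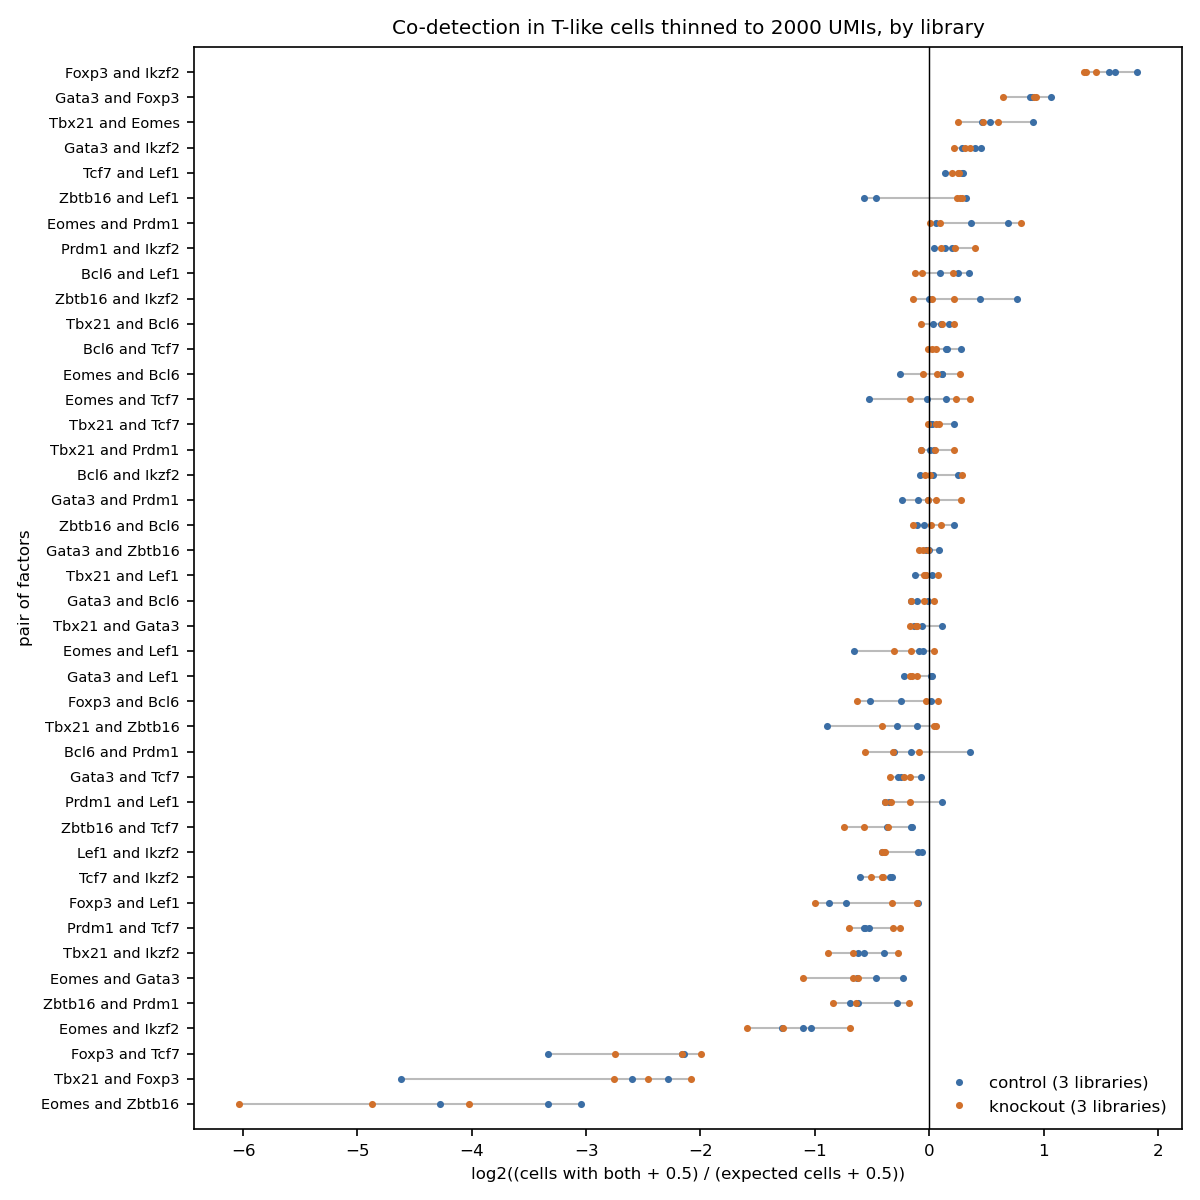
Co-detection of 42 pairs of factors in T-like cells thinned to 2000 UMIs; the horizontal axis is the log2 ratio of observed to expected cells with both, after 0.5 was added to each. Points are libraries (blue, 3 control; orange, 3 knockout) and grey lines span them; Foxp3 with Ikzf2 lies highest (median 1.51) and Eomes with Zbtb16 lowest (-4.15).

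Over 16 lymphocyte groups, the genes whose mean log2 level followed a factor most closely (Pearson correlation among 8994 genes, a description over groups that share the 6 libraries) were Fasl for Tbx21 (0.952), Baiap3 and Crtam for Eomes (0.900 and 0.884), Frmd4b for Gata3 (0.979) and Ncmap, Itgb8 and Tnfrsf4 for Foxp3 (0.959, 0.953 and 0.929). Tnfrsf4 was among the genes that named the Treg-like cluster. Between the factors themselves, Gata3 and Ikzf2 had a correlation of 0.931 and Bcl6 and Prdm1 of -0.623.

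Knockout and control libraries were compared next, to ask whether Cdh5-Cre on the floxed Sting background went with other factor levels in lymphocytes. No factor passed the threshold in any class. UMIs were summed per class and library and tested by edgeR's quasi-likelihood test with Benjamini-Hochberg adjustment over all genes of the class, at 0.05. In T-like cells 0 of 10 factors were called, where 0.00768% of 13014 genes were. The counts were 0 of 9 in NK-like and in ILC1-like cells and 0 of 8 in B-like and in plasma-like cells, where 0% of genes were called. At an unadjusted p under 0.05 stood 0 of 10 factors in T-like cells (6.08% of genes), 0 of 9 in NK-like (5.5%) and ILC1-like cells (6.67%), and 1 of 8 in B-like (5.87%) and in plasma-like cells (5.24%). DESeq2 also called 0 in each class. Fewer cells of a subset and less RNA per cell cannot be told apart in these sums.

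In T-like cells Foxp3 was 17.5, 12.9 and 18.0 normalised CPM (scaled by edgeR's TMM factors, as are the values that follow) in controls and 19.2, 17.7 and 27.3 in knockouts. Knockout 3 was highest, control 3 lay above knockout 2 so that the groups overlapped (without TMM scaling, as given above, they did not), and the log2 fold change was 0.41 (SE 0.195, edgeR adjusted p = 0.832). The Treg-like share of T-like cells was 10.8% ± 1.78 in controls and 15.03% ± 3.46 in knockouts (SD, n = 3 each; exact permutation p = 0.2, adjusted p = 0.72 over 18 shares). Ikzf2 was 377, 379 and 439 in controls and 403, 482 and 539 in knockouts (log2 fold change 0.25, SE 0.124, edgeR adjusted p = 0.832). Prdm1 was 69.2, 57.4 and 49.6 against 44.1, 48.8 and 51.9 (-0.29, SE 0.133, edgeR adjusted p = 0.816), and Eomes was 113, 69.0 and 65.0 against 55.5, 71.2 and 68.8 (-0.34, SE 0.203). Control 1 was the highest library for both. Without the Gzmk CD8-like cells, which were 18.57% of T-like cells in control 1 and 1.41% to 4.83% in the other 5 libraries, the Eomes log2 fold change was -0.08 and that of Prdm1 -0.20. Zbtb16 ranged from 89.7 to 151 in knockouts and 107 to 134 in controls. The IL-17-type gamma-delta-like share of T-like cells, 1 of its 2 main sources, was 8.29% ± 1.82 in controls and 4.85% ± 0.364 in knockouts without overlap (exact permutation p = 0.1, the smallest possible, adjusted p = 0.72). The share of cluster 7, its other main source, was 5.6% ± 1.705 in controls and 10.67% ± 6.46 in knockouts, with overlap (exact permutation p = 0.3, adjusted p = 0.771).

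In NK-like cells Bcl6 was 124, 254 and 302 normalised CPM in controls and 325, 273 and 339 in knockouts (log2 fold change 0.52, SE 0.251, edgeR adjusted p = 0.912), with control 1 lowest, and the log2 fold change was 0.17 without control 1. Lef1 was 216, 176 and 264 against 128, 149 and 202 (-0.44, SE 0.215, same adjusted p). Both differences were within overlapping groups. The summed level of the 11 T markers in NK-like cells was 1425 to 1616 CPM in controls and 1767 to 2072 in knockouts, without overlap, and its part in these values was not tested. In ILC1-like cells all 9 tested factors had log2 fold changes between -0.31 and 0.18. The summed T-marker level there was 2284 to 2500 CPM in controls and 2531 to 2857 in knockouts, also without overlap, and its part was not tested. In B-like cells Tbx21 was 19.2, 15.9 and 17.6 against 13.3, 15.7 and 13.2, without overlap (-0.32, SE 0.156, edgeR adjusted p = 0.875), as 10.8% of genes in that class were. B-like Prdm1 was 11.2, 14.0 and 14.95 against 9.61, 11.5 and 7.36 (-0.46, SE 0.204, edgeR adjusted p = 0.815).

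Tbx21 in plasma-like cells had the smallest p of the classes. It was 27.6, 30.7 and 17.5 normalised CPM in controls and 7.004, 11.3 and 14.6 in knockouts, without overlap, as 10.4% of genes were (log2 fold change -1.26, SE 0.308, unadjusted p = 0.00137, edgeR adjusted p = 0.841). It passed only when genes with low counts were kept in the fit (edgeR adjusted p = 0.00558, against 0.353 to 0.9999 under the other settings). Of its 237 UMIs, 196 came from the 172 plasma-like cells with a T-cell receptor UMI. In the other 624 cells Tbx21 was 5.66 ± 2.81 CPM in controls and 2.32 ± 2.02 in knockouts (SD, n = 3 each), which overlapped, from 41 UMIs in all. Prdm1, the factor of this lineage, was 162 ± 9.35 in controls and 167 ± 10.5 in knockouts (log2 fold change 0.05, SE 0.135).

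**Figure D4:**
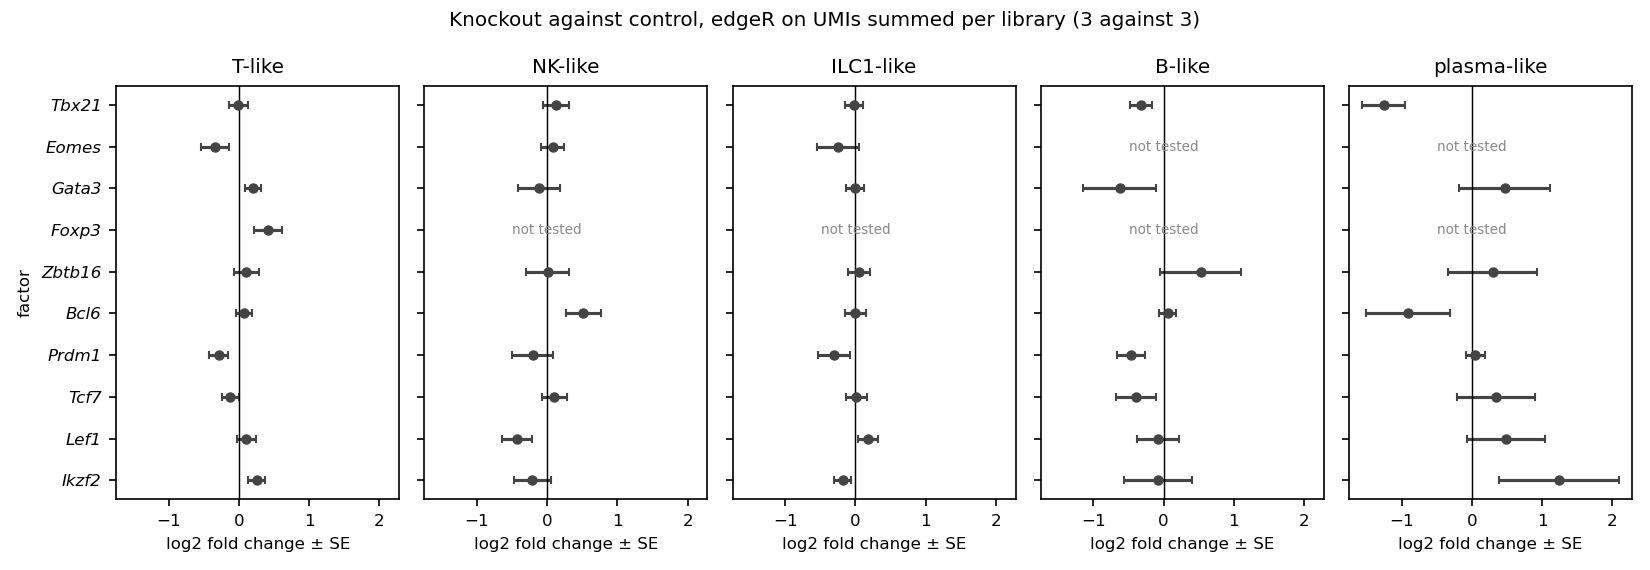
Log2 fold change of each factor, knockout against control (horizontal axis; bars are the standard error, 3 against 3 libraries), in the 5 classes by edgeR. No factor was called; plasma-like Tbx21 (-1.26) lies farthest from 0 on the lower side and plasma-like Ikzf2 (1.24, SE 0.859) on the higher side.

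No factor was called in any of the 13 lymphocyte subsets either, where 0.0559% of genes were called in IL-17-type gamma-delta-like, 0.0873% in Gzmk CD8-like, 0.0214% in cycling T-like and 0% in the other cells. At an unadjusted p under 0.05 stood 1 of 7 tested factors in naive follicular B-like cells (5.09% of genes), 1 of 9 in CD8-like (6.24%), 2 of 9 in Treg-like (5.27%), 1 of 8 in cluster 7 (4.99%), 1 of 8 in cluster 9 (5.41%) and 1 of 9 in cluster 10 (6.58%). There were also 2 of 10 in cycling T-like (6.78%), 1 of 8 in Il17a CD4-like (6.14%) and 2 of 7 in ILC2-like cells (5.97%). None stood there in CD4-like (5.68%), IL-17-type gamma-delta-like (7.01%), Gzmk CD8-like (4.76%) or memory or B1 B-like cells (4.92%). The genes that follow, except Foxp3 at the end, had an unadjusted p under 0.05 and groups that did not overlap after TMM scaling. Ikzf2 in T-like cluster 7 was 275, 254 and 159 normalised CPM in controls and 156, 158 and 152 in knockouts (log2 fold change -0.60, SE 0.172, edgeR adjusted p = 0.798), as 11% of genes did not overlap there. Lef1 in Treg-like cells was 125, 166 and 156 against 180, 227 and 187 (0.43, SE 0.147, edgeR adjusted p = 0.679), and Gata3 in the same cells was 496, 496 and 480 against 648, 640 and 521 (0.30, SE 0.131, edgeR adjusted p = 0.885), where 10.5% of genes did not overlap. In CD8-like cells Tcf7 was 333, 351 and 323 against 253, 272 and 293 (-0.30, SE 0.113, edgeR adjusted p = 0.749), as 11.8% of genes did not overlap. Tcf7 in cycling T-like cells went the other way, at 165, 173 and 159.5 against 215, 188 and 220 (0.32, SE 0.132, edgeR adjusted p = 0.629), as 11.9% of genes did not overlap. Ikzf2 in Il17a CD4-like cells was likewise opposite to cluster 7, at 396, 263 and 427 against 435, 681 and 446 (0.49, SE 0.209, edgeR adjusted p = 0.746), as 11.7% of genes did not overlap. Bcl6 in cluster 10 was 242 ± 14.1 and 187.5 ± 29.1 (-0.37, SE 0.148, edgeR adjusted p = 0.676), where 11.7% of genes did not overlap. In naive follicular B-like cells Tbx21 was 16.3, 14.2 and 10.04 against 8.02, 9.98 and 9.95 (-0.57, SE 0.210, edgeR adjusted p = 0.962), as 10.1% of genes did not overlap. Without TMM scaling these groups overlapped, with control 3 at 9.87 CPM and knockout 2 at 10.26. In ILC2-like cells Zbtb16 was 127 ± 37.7 and 233 ± 53.6 (0.86, SE 0.277, edgeR adjusted p = 0.551) and Bcl6 was 159 ± 16.9 and 91.0 ± 1.74 (-0.80, SE 0.264, edgeR adjusted p = 0.571), from 318 cells. There 3 of 7 factors did not overlap, as 10.3% of genes did not. Foxp3 within Treg-like cells, where it had its highest level, was 158, 124 and 172 against 169, 140 and 150 (0.02, SE 0.147, edgeR adjusted p = 0.998), and the groups overlapped.

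Whether the knockout effect differed between classes was tested by an interaction term with library as a factor. No factor was called between NK-like and T-like cells, where 7 of 11540 genes (0.0607%) were, or between B-like and T-like cells, where 4 of 12899 (0.031%) were, although 4 and 1 of 10 factors had an unadjusted p under 0.05, as did 605 and 713 of those genes. The smallest adjusted p was that of Lef1, whose effect was 0.59 lower on the log2 scale in NK-like than in T-like cells (SE 0.188, edgeR adjusted p = 0.402). Without knockout 3 that difference was -0.86 with an adjusted p of 0.0321. The shares of cells with a UMI could not pass the threshold in an exact permutation test of 3 against 3 libraries, whose smallest p is 0.1.

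Of 40 other lymphocyte lineage regulators listed beside the 10 factors, 39 were tested in T-like, 28 in NK-like, 33 in ILC1-like, 36 in B-like and 37 in plasma-like cells, and 0 were called in each (4, 1, 4, 3 and 3 had an unadjusted p under 0.05). The median log2 fold change of the tested factors was 0.09 in T-like, 0.01 in NK-like, 0.00 in ILC1-like, -0.20 in B-like and 0.32 in plasma-like cells. That of the tested regulators was 0.02, 0.05, -0.04, 0.00 and -0.02 in the same order, and that of all genes lay between -0.01 and 0.01. With 1 library left out, the plasma-like median of the factors ranged from -0.21 (without knockout 2) to 0.75 (without knockout 1). Without plasma-like cells that held a T-cell receptor UMI it was -0.07, over the 3 factors tested there. In T-like cells Zfp683 (Hobit, a factor of tissue-resident lymphocytes) was 2.54 ± 0.542 normalised CPM in controls and 4.63 ± 1.08 in knockouts (log2 fold change 0.86, SE 0.254, edgeR adjusted p = 0.763). Zeb2, which acts downstream of Tbx21 in effector cells, was 1206 ± 200 and 901 ± 66.5 in NK-like cells (-0.42, SE 0.176, edgeR adjusted p = 0.847) and 107 ± 2.59 and 69.6 ± 14.8 in plasma-like cells (-0.65, SE 0.167, edgeR adjusted p = 0.841). In B-like cells the smallest p was that of Id2, an inhibitor of E proteins (54.5 ± 2.02 and 41.2 ± 1.47, -0.41, SE 0.111, edgeR adjusted p = 0.497), and in ILC1-like cells that of Tox, a factor needed for ILC development (775 ± 46.6 and 1002 ± 131, 0.37, SE 0.139, edgeR adjusted p = 0.633). The subsets gave 1 call, Zeb2 in Gzmk CD8-like cells, at 108, 167 and 162.6 in controls and 371, 304 and 691 in knockouts (1.68, SE 0.283, edgeR adjusted p = 0.0153), where each library held 34 cells or more and 0.0873% of genes were called. It was chosen for naming after its value was seen. The call was lost when control 1, control 2, knockout 1 or knockout 3 was left out, each alone, and no regulator was called there in those fits.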

How the data were processed

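The deposited files hold raw UMI counts per gene and cell barcode, 1 matrix per library, written by Cell Ranger 7.1.0 per the file headers. The submitters' processing notes also name mm10 and Seurat 4.1.1; the annotation release and Seurat's step are not given in the sources used here. Of 44656 barcodes, 42682 passed a minimum of 300 detected genes and a ceiling of 20% on mitochondrial UMIs. Scrublet (scanpy 1.11.5) scores above 0.2667, the median of the thresholds in 4 libraries where it worked, removed 938 doublets; this threshold, and the limits on scores that name clusters, were set after scores were seen. Barcodes shared by library pairs were 0.097% to 0.328%. Leiden clustering at resolution 1 used 3000 variable genes without the 10 factors and gave 38 clusters, 30 of them named. Classes were tested with edgeR 4.0.16 (R 4.3.3) on summed counts, with genes filtered by filterByExpr. Exact permutation tests were two-sided over libraries. Levels without TMM are CPM over the UMIs of the class in that library; 3′ counts were not compared between genes. Library totals limit precision, and intervals cover counting error only. On simulated counts with 200 changed genes, the test recovered 69% of log2 changes of 1 and 93% of changes of 2 in T-like cells (13014 genes). It recovered 58% and 86% in NK-like cells (5493 genes), and 49% and 89% in plasma-like cells (9004 genes). Unchanged genes were called as well, 10 in T-like, 6 in NK-like, 14 in ILC1-like, 17 in B-like and 17 in plasma-like cells. The labels state biological replicates; nothing further says how the mice were related, so p-values measure the spread between these libraries. All 10 factors are named in every class, and up to 3 other regulators a direction by smallest p; 1 of these is not reported here. The members and lists were chosen with earlier results of these data known. Alternatives were DESeq2, RLE size factors, no filter, replicate block, leaving out each library, doublets kept, a 10% mitochondrial limit, resolution 2 and other thinning; 2 more, leaving out Gzmk CD8-like cells and plasma-like cells with a T-cell receptor UMI, were chosen after seeing the data.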

Additional observations from a re-analysis of the deposited data

How the results depend on the processing

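The count of factors past the threshold stayed at 0 in every class and in the subsets under the alternatives tried, with 1 exception in plasma-like cells: with no filter on low counts the count was 1, Tbx21 (log2 fold change -1.265; edgeR adjusted p = 0.00558), and its adjusted p was between 0.353 and 0.9999 otherwise. For the interaction between NK-like and T-like cells, leaving out 1 library gave 0 to 1 factors, the 1 being Lef1 without knockout 3; the other counts of factors, and the counts of regulators in the 5 classes, were 0 without any single library. In the subsets 1 regulator was called in single leave-one-out fits of IL-17-type gamma-delta-like, cycling T-like and ILC2-like cells, and in 2 of the 6 fits of Gzmk CD8-like cells. With all 6 libraries, every setting called 1 in Gzmk CD8-like cells. No filter on low counts called 1 in plasma-like, cluster 7 and IL-17-type gamma-delta-like cells and 2 in cycling T-like cells. The replicate block called 1 in cluster 10 and in cycling T-like cells, and keeping doublets called 1 in cycling T-like cells. Under DESeq2 0 factors were called, while the genes called were 30 in T-like, 0 in NK-like, 12 in ILC1-like, 12 in B-like and 1 in plasma-like cells. Of 321 fold changes under other settings, 302 kept direction and side of the threshold and 18 changed sign; the cause was not tested. ILC1-like Gata3 (-0.0027 in the main test) was 0.0082 with DESeq2, 0.0045 with RLE factors, 0.015 without the filter, 0.015 with doublets kept and 0.000349 at a mitochondrial limit of 10%; ILC1-like Bcl6 (-0.0012) was 0.0086, 0.0061, 0.0137, 0.0141 and 0.0022 in the same order. NK-like Zbtb16 (0.0093) was -0.034 with DESeq2, -0.0072 without the filter and -0.047 with the replicate block. B-like Ikzf2 (-0.083) was 0.0088 with doublets kept and 0.27 at the 10% limit, and plasma-like Zbtb16 (0.30) was -0.0014 at resolution 2. In the alternatives chosen after seeing the data, T-like Tbx21 (-0.012) was 0.037 without Gzmk CD8-like cells and plasma-like Lef1 (0.48) was -0.067 without cells with a T-cell receptor UMI, where the low-count filter left Tbx21 untested.

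Leaving out 1 library at a time changed the sign in some of the 6 fits for 23 of 44 fold changes. In T-like cells the ranges were -0.11 to 0.094 for Tbx21, -0.043 to 0.30 for Zbtb16, -0.038 to 0.17 for Bcl6 and -0.028 to 0.22 for Lef1. In NK-like cells they were -0.043 to 0.28 for Tbx21, -0.37 to 0.15 for Gata3, -0.17 to 0.17 for Zbtb16 and -0.42 to 0.071 for Ikzf2. In ILC1-like cells they were -0.099 to 0.035 for Tbx21, -0.45 to 0.031 for Eomes, -0.11 to 0.090 for Gata3, -0.038 to 0.20 for Zbtb16, -0.18 to 0.13 for Bcl6 and -0.14 to 0.13 for Tcf7. In B-like cells they were -0.25 to 1.12 for Zbtb16, -0.046 to 0.14 for Bcl6, -0.26 to 0.22 for Lef1 and -0.44 to 0.41 for Ikzf2. In plasma-like cells they were -0.23 to 0.89 for Gata3, -0.31 to 0.74 for Zbtb16, -0.00528 to 0.090 for Prdm1, -0.18 to 0.77 for Tcf7 and -0.086 to 1.05 for Lef1. Values that kept their sign still moved: T-like Foxp3 was 0.19 to 0.53, T-like Eomes -0.48 to -0.041, NK-like Bcl6 0.17 to 0.74 and plasma-like Ikzf2 0.39 to 1.75.

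Libraries with the same replicate number correlated by -0.107 to 0.248 in their deviations from the group means, not over 0.1 for every number, so the numbers were not taken to pair libraries. With the replicate block 0 factors were called, and 1, 24, 10, 20 and 4 genes were called in T-like, NK-like, ILC1-like, B-like and plasma-like cells. Of 120 co-detection values under other settings 32 moved beyond the spread between libraries, and of 150 shares of cells 83 did. Among the 5 classes the fewest genes passed the filter in NK-like cells (5493, against 13014 in T-like cells), and the smallest share of simulated log2 changes of 1 was recovered in plasma-like cells (49%).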
